A study of Mus musculus with 10 samples.

Results

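The genes described here are *Eya4* and the other Eya, Six-family and Dach genes that were read from the cortical hem (CH) of wild-type and *Lmx1a*-/- mouse embryos at e13.5. *Eya4* was chosen by its lower level in the mutants in these same libraries, and *Eya1*, *Eya2*, *Eya3*, *Dach1*, *Dach2*, *Six3*, *Six4* and *Six5* were selected on their names as relatives or partners of *Eya4*, with earlier results of these data known. They are 9 of the 52227 genes of the count table, and all 9 were among the 21664 genes that had enough counts to be tested. The CH is the signaling center at the edge of the medial telencephalic neuroepithelium, next to the choroid plexus. Each library came from the CH sections of 1 embryo, cut out by laser capture microdissection, and there were 5 embryos of each genotype. The mutants were homozygous for *Lmx1a* drJ, a point mutation that inactivates the protein without removing the transcript. Embryos of both genotypes were on a mixed background of C57Bl6, FVB and CD1. The borders of the CH were drawn from neighboring sections stained against Lmx1a, so in the mutants they rested on staining of the mutant protein.

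Eya proteins are transcriptional coactivators that also carry a phosphatase domain, and they do not bind DNA by themselves. Six-family proteins are homeodomain transcription factors that bring Eya proteins to DNA, while Dach proteins, relatives of the Ski and Sno corepressors, act with them as cofactors. Together with Pax genes they form a network that is known from the development of the eye, ear, kidney and muscle, and Six3 is needed to form the forebrain.

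Library totals ranged from 19145952 to 36462780 counts, and mitochondrial genes took 20.6 to 27.6% of them. Transcripts of *Lmx1a* itself were higher in the mutants (71.2 ± 18.2 against 114 ± 21.0 normalized CPM, the TMM-scaled counts of a gene per 1e6 counts; mean ± SD, n = 5 per genotype; log2 fold change 0.68, edgeR quasi-likelihood FDR 0.0658), which does not test the labels, since the mutation leaves the transcript in place. This call was lost without wild-type embryo 1 or 4 or mutant 4 or 5, with the replicate block (embryo number as a term, FDR 0.136) and with a covariate for *Xist* (FDR 0.644). CH genes such as *Wnt3a* (41.6 to 81.8 CPM over all libraries) and *Wnt8b* (599 to 1097 CPM) were read in each library. The X-inactivation transcript *Xist* ranged from 4399 to 5169 CPM in wild-type embryos 2 to 5, and was 1.01 CPM in wild-type embryo 1 and 0.163 to 1.15 CPM in the mutants. Y-linked transcripts were the reverse, with a sum of 341 CPM in wild-type embryo 1 and 384 to 451 CPM in the mutants. Genotype and sex were thus nearly aligned, and wild-type embryo 1 is the one wild-type library with the sex transcripts of the mutants. In this tissue, fewer cells of a type and less RNA per cell cannot be told apart.

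*Eya4* (ENSMUSG00000010461) lies on the minus strand of chromosome 10 at 23102963 to 23350786 of GRCm38. To show sequence near a start of the gene with the lower level, the RefSeq promoter table (GRCm38.p6) was read over the 250 bases before each start that RefSeq gives, and 7 of the 9 genes had an entry. The *Eya4* window with the most CpG, chr10:23349944-23350193, held 35 CpG dinucleotides at 74.0% GC, and 97.0% of the 32851 promoters in the table had fewer. Another *Eya4* window, chr10:23349891-23350140, held 25 CpG at 67.6% GC, and 89.3% of promoters had fewer. Of its bases, 246 lie in an exon of *Eya4*. The median promoter had 6 CpG and 52.4% GC. The RefSeq start of the first *Eya4* window lies inside the *Eya4* gene of GENCODE M21, which begins farther upstream. That window is therefore upstream of the RefSeq start only. Of the 250 bases of the first *Eya4* window, 193 lie in an exon of *Eya4* in GENCODE M21, and the other 57 lie between annotated exons of the gene. These 57 bases are shown, chr10:23350137-23350193, minus strand, 5′ to 3′, with the 12 CpG in capitals.
Eya4 bases before the RefSeq start: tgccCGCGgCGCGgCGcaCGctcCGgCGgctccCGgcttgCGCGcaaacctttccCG
The homeodomain core TAATTA, the kind of site bound by Lmx1a, was searched on both strands. It was in 4.84% of all promoters and in 0 of the 10 windows of these genes. *Eya1* and *Eya2* had no entry and were not searched. The windows of *Eya4* overlap each other, as do those of *Six4*. The MEF3 motif TCAGGTTTC, known as a Six-family binding site, was in 0.387% of all promoters and in 1 of the 10 windows, that of *Six4*. It lies there on the reverse strand, from 99 bases before the annotated start, within an exon of *Six4* in GENCODE M21. The match is shown in capitals within chr12:73113326-73113354, minus strand.
Six4 MEF3 match: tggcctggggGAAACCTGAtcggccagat
These are matches of letters, and no binding was measured.

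The *Eya4* level of wild-type embryos 1 to 5 was 122, 137, 103, 119 and 134 CPM, and that of *Lmx1a*-/- embryos 1 to 5 was 39.1, 59.3, 41.5, 56.2 and 52.8 CPM. The lowest wild-type embryo was above the highest mutant, and the groups did not overlap. The means were 123 ± 13.4 and 49.8 ± 9.01 CPM (SD, n = 5 each), a 2.47-fold lower level in the mutants. The log2 fold change was -1.31 (SE 0.13, 95% interval -1.57 to -1.04). No test is given for it, since *Eya4* was chosen by this difference.

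*Eya1*, the relative known for its part in ear and kidney development, went the other way. Its levels were 61.8, 47.5, 62.9, 44.2 and 65.6 CPM in the wild-type embryos and 123, 119.9, 98.3, 111 and 99.97 CPM in the mutants. The lowest mutant was above the highest wild-type embryo. The means were 56.4 ± 9.80 and 110.3 ± 11.1 CPM, and the log2 fold change was 0.97 (SE 0.12, 95% interval 0.71 to 1.22, FDR 0.00144). Within each embryo, the ratio of *Eya4* to *Eya1* counts was 1.64 to 2.88 in the wild-type and 0.319 to 0.528 in the mutants, so that *Eya4* gave more counts than *Eya1* in each wild-type embryo and fewer in each mutant. *Eya1* lies on chromosome 1 at 14168954 to 14310235, minus strand.

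The other two Eya genes overlapped between the genotypes and missed the threshold. *Eya2*, which like *Eya1* is known from placodes and muscle, stood at 20.4, 12.04, 15.1, 11.2 and 14.3 CPM in the wild-type and at 20.8, 19.6, 14.0, 16.0 and 16.9 CPM in the mutants. Wild-type embryo 1 and mutant embryo 1 were the highest of their groups, and the log2 fold change was 0.25 (SE 0.17, 95% interval -0.12 to 0.63). *Eya3*, the broadly expressed member of the family, stood at 45.3, 43.3, 38.6, 51.6 and 42.6 CPM against 43.4, 43.2, 41.6, 43.0 and 36.6 CPM. Its log2 fold change was -0.092 (SE 0.094, 95% interval -0.29 to 0.11). *Eya2* lies on chromosome 2 at 165595032 to 165771727 and *Eya3* on chromosome 4 at 132638987 to 132724765, both on the plus strand.

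**Figure D1:**
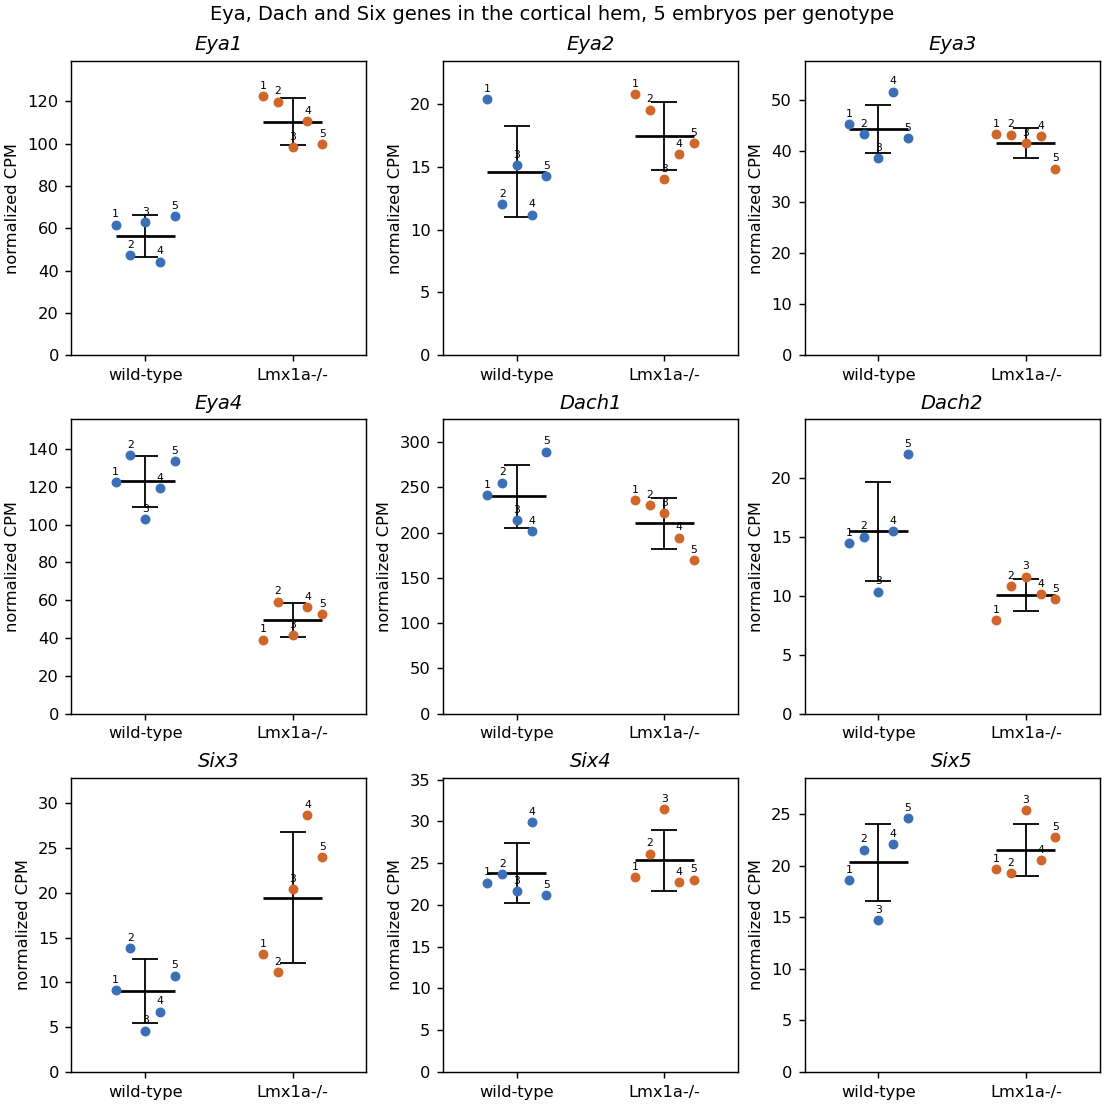
Normalized CPM of the 9 genes in each CH library, on linear axes from 0, wild-type in blue and Lmx1a-/- in orange, with the embryo number at each point; horizontal lines are means and bars are SD (n = 5). *Eya4* and *Eya1* are the 2 genes whose groups do not overlap, and they move in opposite directions.

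To set the genes beside each other, each level was divided by the summed length of all annotated exons of the gene. The length of the transcripts present in the CH was not measured and can differ from it. In the wild-type CH, *Eya4* was the most abundant Eya transcript at 13.1 ± 1.43 CPM per kb, above *Eya3* at 7.84 ± 0.845, *Eya1* at 7.22 ± 1.25 and *Eya2* at 4.93 ± 1.22 CPM per kb. In the mutants *Eya1* led at 14.1 ± 1.42 CPM per kb, and *Eya4*, at 5.29 ± 0.957 CPM per kb, overlapped with *Eya2* at 5.89 ± 0.922 CPM per kb. The sum of the 4 genes was 33.1 ± 2.21 CPM per kb in the wild-type (30.9 to 35.8) and 32.7 ± 2.80 CPM per kb in the mutants (29.1 to 35.9). The *Eya4* share of this sum was 39.5 ± 3.85% in the wild-type and 16.2 ± 2.66% in the mutants. That of *Eya1* was 21.8 ± 3.38% and 43.2 ± 1.33%. Those of *Eya3* (23.8 ± 3.14% and 22.6 ± 1.69%) and *Eya2* (14.8 ± 3.00% and 18.0 ± 1.73%) overlapped between the genotypes. By this measure, which depends on the exon lengths used, the family total was within the spread of the embryos while its makeup was not. This makeup rests on the same 2 genes that are described above.

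**Figure D2:**
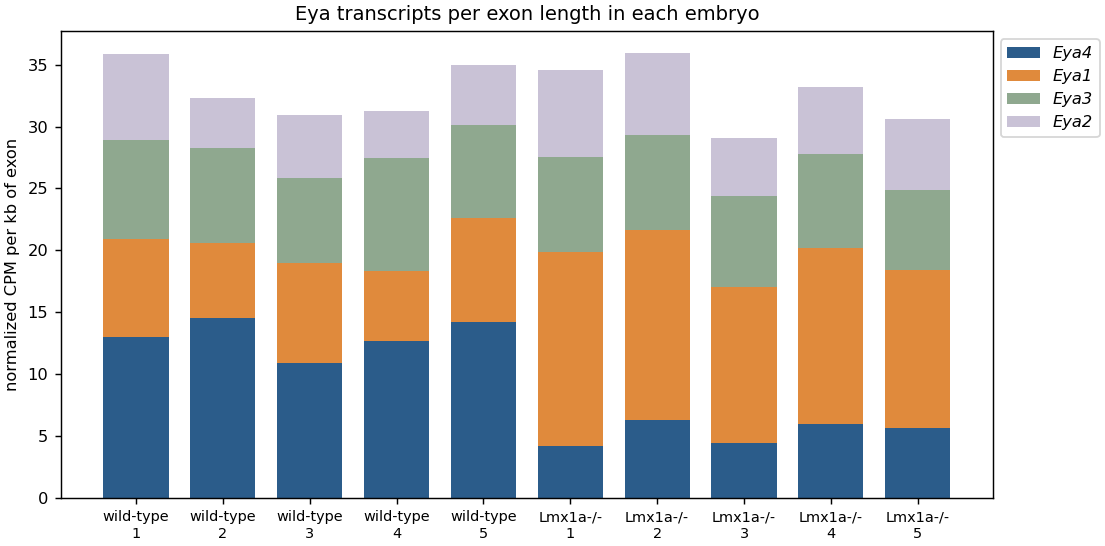
Normalized CPM per kb of exon of the 4 Eya genes, stacked for each of the 10 CH libraries. The total height lies between 29.1 and 35.9 CPM per kb in all 10 embryos, while *Eya4* (blue) is the largest share in the wild-type and *Eya1* (orange) in the Lmx1a-/- embryos.

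*Dach1* (chromosome 14 at 97786853 to 98169765, minus strand) was the most abundant of the 9 genes per kb in both genotypes, at 32.8 ± 4.77 and 28.7 ± 3.80 CPM per kb. It stood at 242, 255, 214, 201 and 289 CPM in the wild-type embryos and at 235, 231, 221, 194 and 169 CPM in the mutants. The groups overlapped, with a log2 fold change of -0.19 (SE 0.11, 95% interval -0.44 to 0.050). *Dach2* (chromosome X at 113297510 to 113836386, plus strand) had the lowest mean level of the 9, at 1.57 ± 0.423 and 1.02 ± 0.139 CPM per kb. In the wild-type its range overlapped with that of *Six3*, which was above *Dach2* per kb in 2 of the 5 embryos. It stood at 14.4, 15.02, 10.4, 15.5 and 22.0 CPM in the wild-type and at 7.95, 10.8, 11.6, 10.2 and 9.74 CPM in the mutants. Wild-type embryo 3 was the one wild-type library inside the range of the mutants. The log2 fold change of *Dach2* was -0.62 (SE 0.19, 95% interval -1.02 to -0.22), and its FDR of 0.113 missed the threshold of 0.1. Without wild-type embryo 3 the difference was -0.74 and its FDR 0.0423, and with DESeq2 in place of edgeR the FDR was 0.0299. With the mean level of choroid plexus markers as a covariate the difference shrank to -0.16. This covariate correlated with genotype at -0.775, so the fit has little left to separate the terms.

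*Six3* stood at 9.18, 13.8, 4.62, 6.75 and 10.7 CPM in the wild-type and at 13.2, 11.2, 20.4, 28.7 and 24.0 CPM in the mutants. Mutant embryos 3, 4 and 5 were above each wild-type embryo, while mutants 1 and 2 lay below wild-type embryo 2. The means were 9.03 ± 3.57 and 19.5 ± 7.31 CPM, with a log2 fold change of 1.11 (SE 0.30, 95% interval 0.46 to 1.77) and an FDR of 0.0815. This call is close to the threshold: it held in 3 of the 10 fits that left out 1 embryo, where the log2 fold change ran from 0.93 to 1.31, and was lost without any 1 of wild-type embryos 1, 3, 4 and 5 or mutant embryos 3, 4 and 5. It was also lost with the replicate block (FDR 0.172) and with a covariate for *Xist* (difference 1.15, FDR 0.577). With the choroid plexus marker covariate the *Six3* difference was 2.23. *Six3* lies on the plus strand of chromosome 17 at 85613608 to 85629302. Its antisense gene *Six3os1*, on the opposite strand, shares 106 exon bases with it. *Gm28528*, also on the opposite strand, shares 168 exon bases with *Six3* and had at most 9 counts in a library. Reads on shared bases could not be split without the strand setting of the counting.

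*Six3os1* stood at 10.6, 12.7, 5.91, 4.77 and 9.97 CPM in the wild-type and at 11.7, 14.7, 14.0, 24.9 and 23.1 CPM in the mutants. Its log2 fold change was 1.01 (SE 0.28, FDR 0.0885), and its call too held in 3 of the 10 fits without 1 embryo. It was lost without any 1 of wild-type embryos 1, 3, 4 and 5 or mutant embryos 2, 4 and 5. The replicate block also lost it (FDR 0.162). So did a covariate for *Xist* (difference 0.76, FDR 0.684) or for choroid plexus markers (difference 1.76, FDR 0.152). Both covariates correlated with genotype, so neither separates well from it. Between wild-type embryo 1 and the mutants the *Six3os1* difference was 0.74. The ratio of *Six3* to *Six3os1* counts was 0.781 to 1.41 in the wild-type and 0.763 to 1.46 in the mutants, and these ranges overlapped. Markers of the ventral telencephalon, where *Six3* is known to be expressed, were followed beside it. Of 7 such genes 1 passed the test, *Dlx5*, which was higher in the mutants (3.38 to 12.7 against 13.6 to 42.5 CPM, FDR 0.0210). *Gsx2* was at 0 in wild-type embryos 3 and 4. The 7 genes summed to 17.4 to 69.7 CPM in the wild-type and to 27.4 to 187 CPM in the mutants. Mutant embryo 4, the highest for *Six3*, had a sum of 58.5 CPM, and mutant embryo 5 had the highest sum. The part of these cells in the *Six3* level was not tested further.

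*Six4* and *Six5*, the Six-family genes most widely expressed outside the eye field, overlapped between the genotypes and missed the threshold. *Six4* (chromosome 12 at 73099609 to 73113456, minus strand), the gene with the MEF3 match shown above, stood at 21.1 to 29.9 CPM in the wild-type, with a median of 22.7, and at 22.7 to 31.4 CPM in the mutants, with a median of 23.3. Its log2 fold change was 0.090 (SE 0.13, 95% interval -0.19 to 0.37). *Six5* (chromosome 7 at 19094594 to 19098549, plus strand) stood at 14.7 to 24.6 CPM, with a median of 21.6, and at 19.3 to 25.4 CPM, with a median of 20.5. Its log2 fold change was 0.086 (SE 0.14, 95% interval -0.22 to 0.39). Per kb, *Six5* was the most abundant of the 3 Six-family genes in both genotypes, at 6.75 ± 1.25 and 7.16 ± 0.845 CPM per kb. *Six3* was at 1.66 ± 0.655 and 3.58 ± 1.34 CPM per kb and *Six4* at 2.19 ± 0.327 and 2.33 ± 0.339 CPM per kb, and their ranges overlapped in both genotypes.

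In the order of levels per kb, the wild-type CH ran *Dach1*, *Eya4*, *Eya3*, *Eya1*, *Six5*, *Eya2*, *Six4*, *Six3*, *Dach2*. Neighbors in this order were separate, without overlap, at *Dach1* and *Eya4*, at *Eya4* and *Eya3*, and at *Eya2* and *Six4*. In the mutants the order was *Dach1*, *Eya1*, *Eya3*, *Six5*, *Eya2*, *Eya4*, *Six3*, *Six4*, *Dach2*. There the separate neighbors were *Dach1* and *Eya1*, *Eya1* and *Eya3*, and *Six4* and *Dach2*. The middle genes, from *Eya3* to *Eya4* in the mutants, each overlapped with the next.

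Counted over the 9 genes, 1 was lower (*Eya4*), 2 were higher (*Eya1* and *Six3*) and 6 missed the threshold. Over all 21664 genes, 4.02% passed it, 2.29% lower and 1.72% higher. The genotypes did not overlap for 2 of the 9 genes and for 4.44% of all genes. Since *Eya4* was chosen by this contrast and the others were listed with it known, nothing is read from the count. The median log2 fold change of the 9 genes was 0.086, beside -0.0049 over all genes tested.

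**Figure D3:**
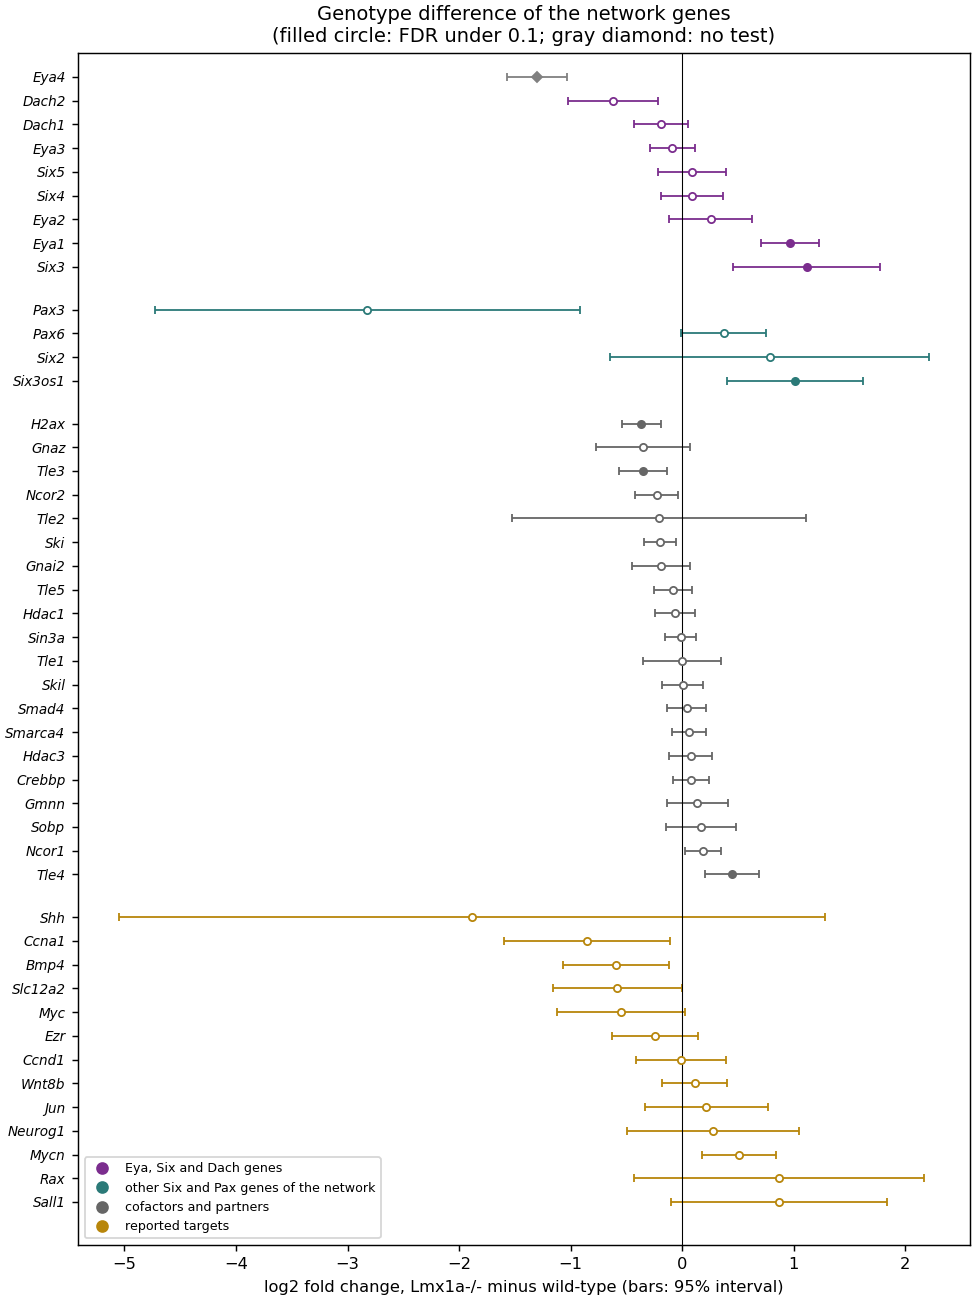
Log2 fold change between Lmx1a-/- and wild-type CH for the 9 genes and 3 further lists of the network, with 95% intervals from edgeR (5 libraries per genotype). *Eya4*, chosen by this contrast, is a gray diamond at -1.31 and carries no test; filled circles have an FDR under 0.1, with *Eya1* at 0.97 and *Six3* at 1.11, and in the other lists only *Six3os1*, *H2ax*, *Tle3* and *Tle4* are filled.

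Of 7 further Six-family and Pax genes of the network, 4 had enough counts, and *Six3os1* was the one that passed the test. *Six2*, known from mesenchyme and kidney progenitors, was scarce and uneven. This gene, the neighbor of *Six3* on chromosome 17 (85684277 to 85688274), stood at 0.896, 1.17, 14.1, 2.39 and 2.18 CPM in the wild-type and at 5.22, 3.53, 5.35, 6.84 and 15.1 CPM in the mutants. Wild-type embryo 3 and mutant embryo 5 stood apart from their groups. The log2 fold change was 0.78 (SE 0.66, FDR 0.608), and without wild-type embryo 3 it was 2.12 (FDR 0.0253). *Aldh1a2*, a marker of the meninges, was at 17.0 CPM in wild-type embryo 3 and at 13.2 CPM in mutant embryo 5, and at most at 2.83 CPM in the other 8 libraries. No other of the 12 markers of meninges and mesenchyme was the highest of its group in both of these embryos. *Col1a1* was highest in wild-type embryo 3 (278 CPM) but not in mutant embryo 5. *Foxc1* was highest in mutant embryo 5 (15.4 CPM) but not in wild-type embryo 3, and *Twist1* was highest in neither. The 12 markers of meninges and mesenchyme, none of them at 0 in any library, were summed. Their sum was 346 to 965 CPM in the wild-type, highest in embryo 3, and 264 to 532 CPM in the mutants. Mutant embryo 3 had the highest sum of the mutants, and mutant embryo 5 had 495 CPM. Of the 12 genes, 3 were lower in the mutants. The part of these cells in the *Six2* level was not tested.

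*Pax6*, which acts upstream of Eya and Six-family genes in the eye and marks the cortical neuroepithelium, stood at 53.9, 48.3, 80.5, 36.6 and 49.5 CPM in the wild-type and at 78.97, 79.0, 69.0, 69.1 and 51.9 CPM in the mutants. Wild-type embryo 3 was the highest of all, and the difference of 0.37 (SE 0.18) had an FDR of 0.326. Without wild-type embryo 3 it was 0.56 (FDR 0.0584). *Pax3*, the partner of Six-family genes in muscle precursors, was at 49.5 CPM in the library of wild-type embryo 4 and at 0.465 to 5.68 CPM in the other 9 (log2 fold change -2.82, SE 0.88, FDR 0.125). Without that embryo the difference was -1.12 (FDR 0.398). *Six6* had 26 counts in wild-type embryo 4 and 0 in the other 9 libraries, and *Pax2* and *Pax8* had at most 2 counts in a library, so these 3 genes were not tested.

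**Figure D4:**
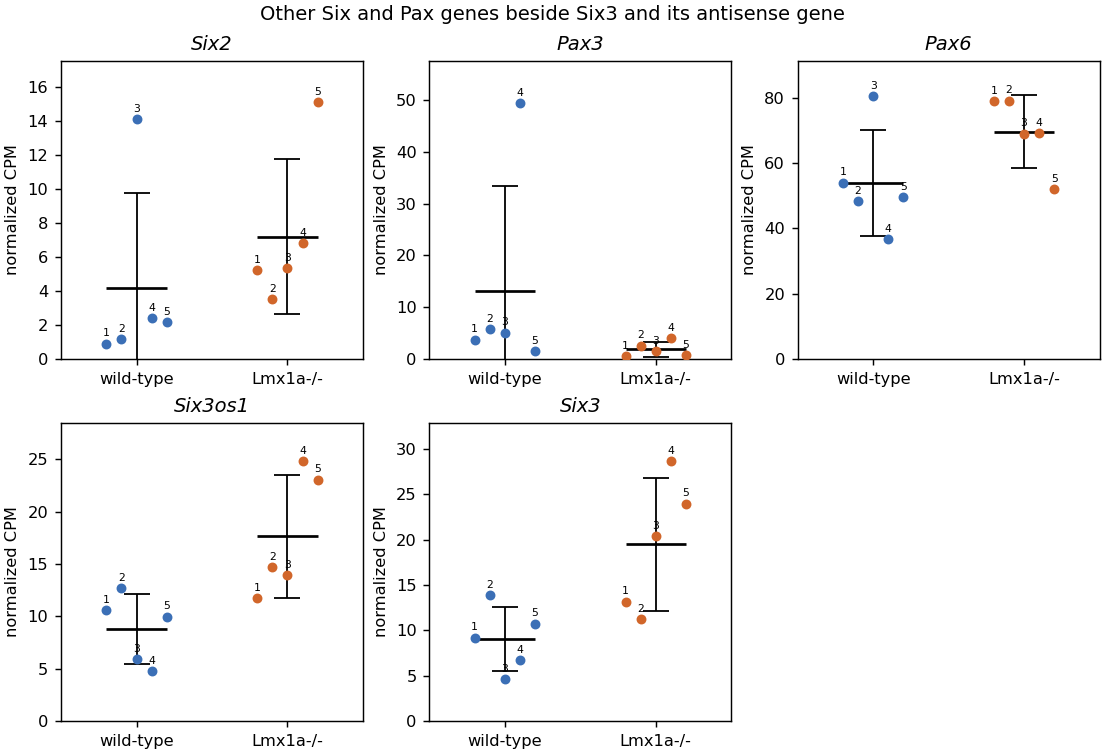
Normalized CPM of the other tested Six-family and Pax genes, with *Six3* and its antisense gene *Six3os1*, in each CH library (linear axes, embryo numbers at the points, means and SD, n = 5). Single embryos set the spread of *Six2* (wild-type 3 and Lmx1a-/- 5) and *Pax3* (wild-type 4), while *Six3* and *Six3os1* are highest in Lmx1a-/- embryos 4 and 5.

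Among 20 cofactors and partners of Eya, Six-family and Dach proteins, 2 were lower, 1 was higher and 17 missed the threshold, beside 2.29% lower and 1.72% higher over all genes. *H2ax*, the histone whose C-terminal tyrosine is a substrate of the Eya phosphatase, fell from 145 ± 13.7 to 113 ± 7.16 CPM (log2 fold change -0.37, SE 0.080, FDR 0.0322), with no overlap between the genotypes. It passed without each single embryo, and missed the threshold with a covariate for *Xist* (FDR 0.169) or for choroid plexus markers (FDR 0.592). The *H2ax* call was lost in 3 alternative settings, these among them, and kept in 20. The covariates correlated with genotype at -0.825 (*Xist*) and -0.775 (choroid plexus markers). Of the Groucho corepressors, *Tle3* and *Tle4* passed in opposite directions, and *Tle1*, *Tle2* and *Tle5* missed the threshold (FDR 0.999, 0.907 and 0.662). *Tle3* fell from 89.8 ± 6.68 to 70.3 ± 9.80 CPM (-0.35, SE 0.099, FDR 0.0907), again with no overlap, and passed in 3 of the 10 fits without 1 embryo, those without mutant 1 or 2 or wild-type 3. It missed the threshold with upper quartile scaling (FDR 0.106), with library size scaling (FDR 0.140) and with a covariate for *Xist* (FDR 0.537) or choroid plexus markers (FDR 0.658). *Tle4* rose from 83.7 ± 11.5 to 113.8 ± 16.4 CPM (0.44, SE 0.11, FDR 0.0631) and was lost without mutant 2 or without wild-type embryo 1, 2 or 5. The *Tle4* call was also lost with the replicate block (FDR 0.137) and with a covariate for *Xist* (0.61, FDR 0.370) or choroid plexus markers (0.23, FDR 0.769). Counted in the same way, 9 alternative settings lost the *Tle4* call and 14 kept it. For *Tle3*, 14 settings lost the call and 9 kept it. *Tle1*, the most abundant of the Groucho genes read here, stood at 361 ± 68.4 and 361 ± 81.3 CPM. *Ski*, a relative of the Dach genes, stood at 111 to 117 CPM in the wild-type and at 89.0 to 107 CPM in the mutants without overlap, and its FDR of 0.145 missed the threshold. The list's median log2 fold change was -0.0071, and 3 of its 20 genes did not overlap, all of them higher in the wild-type. Over all genes 4.44% did not overlap, 491 of the 21664 being higher in the wild-type and 470 in the mutants.

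Of 16 genes described elsewhere as targets of Six-family or Eya proteins, 13 were tested and 0 passed. At an unadjusted p under 0.05 there were 4 of them, *Mycn*, *Bmp4*, *Ccna1* and *Slc12a2*, and DESeq2 called 2, *Mycn* and *Bmp4*, where it called 8.15% of all genes. *Slc12a2* was at 219 CPM in wild-type embryo 4 and at 72.0 to 84.4 CPM in the other wild-type embryos. The mutants, at 57.7 to 88.7 CPM of *Slc12a2*, overlapped with those. *Wnt8b*, a CH signal whose forebrain boundary Six3 is known to set, stood at 851 ± 198 CPM in the wild-type and 920 ± 71.4 CPM in the mutants (log2 fold change 0.11, SE 0.14, FDR 0.738). *Wnt1*, a Six3 target at the midbrain border, had 6, 14, 0, 2 and 23 counts in the wild-type embryos and 0 in each mutant, and was too scarce to be tested. The growth gene *Mycn* stood at 30.4 to 48.1 CPM in the wild-type and at 43.6 to 62.9 CPM in the mutants (0.51, SE 0.15, FDR 0.113). *Bmp4* stood at 17.9 to 45.8 and 17.3 to 27.2 CPM (-0.59, SE 0.22, FDR 0.190). The median of the 13 genes was -0.0093.

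The levels of *Eya4* and *Eya1* were set beside the cell type markers that also moved with genotype. Of 12 choroid plexus markers 11 were tested, and 4 were lower in the mutants, among them the defining marker *Ttr* (78.3 against 7.23 CPM, FDR 0.0512). *Kl* was at 0 in 1 library of each genotype. Their sum was 101 to 467 CPM in the wild-type and 130 to 196 CPM in the mutants. Wild-type embryo 3, with the lowest sum of all 10 libraries, had 103 CPM of *Eya4* and 62.9 CPM of *Eya1*, outside the range of the mutants for both genes. With the mean choroid plexus marker level as a covariate, *Eya1* had a log2 fold change of 0.82 and no longer passed (FDR 0.163), while *Eya4* was at -1.15. The covariate correlated with genotype at -0.775, so this fit has little left to separate the terms. Markers of Cajal-Retzius cells, neurons born in the CH, summed to 316 to 524 CPM in the wild-type and 218 to 307 CPM in the mutants without overlap. Of 8 tested markers 4 were lower (*Trp73*, *Reln*, *Lhx1*, *Car10*) and *Lhx5* was higher. *Calb2* was at 0 in 1 library of each genotype. Markers of the cortical neuroepithelium summed to 686 to 1201 CPM and to 1081 to 1473 CPM, with *Emx2* higher. Red blood cell markers, mostly globins, summed to 632 to 1472 CPM in the wild-type and 267 to 573 CPM in the mutants without overlap. Of their 7 tested genes 6 had a negative difference and 0 passed (median log2 fold change -0.90), and *Hba-a2*, not tested, was at 0 in 8 libraries. Markers of the CH itself summed to 1786 to 3322 CPM and to 2064 to 2708 CPM, and of the 9, *Wnt2b*, *Wnt5a* and *Msx1* were lower in the mutants and *Lmx1a* was higher. The part of these cells in the Eya levels was not tested further.

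Wild-type embryo 1, the one wild-type library with Y-linked transcripts, had 122 CPM of *Eya4*, above each mutant, and 61.8 CPM of *Eya1*, below each mutant. In a comparison of this embryo alone with the 5 mutants, which takes the spread from the mutants, the log2 fold changes were -1.31 for *Eya4* and 0.83 for *Eya1* (FDR 0.0983). With *Xist* as a covariate *Eya4* was at -1.32, and *Eya1*, at 0.81, no longer passed (FDR 0.265). *Xist* correlated with genotype at -0.825 over the 10 libraries, so this fit has little left to separate the terms. For *Six3* the difference between wild-type embryo 1 and the mutants was 1.08 and did not pass (FDR 0.517).

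**Figure D5:**
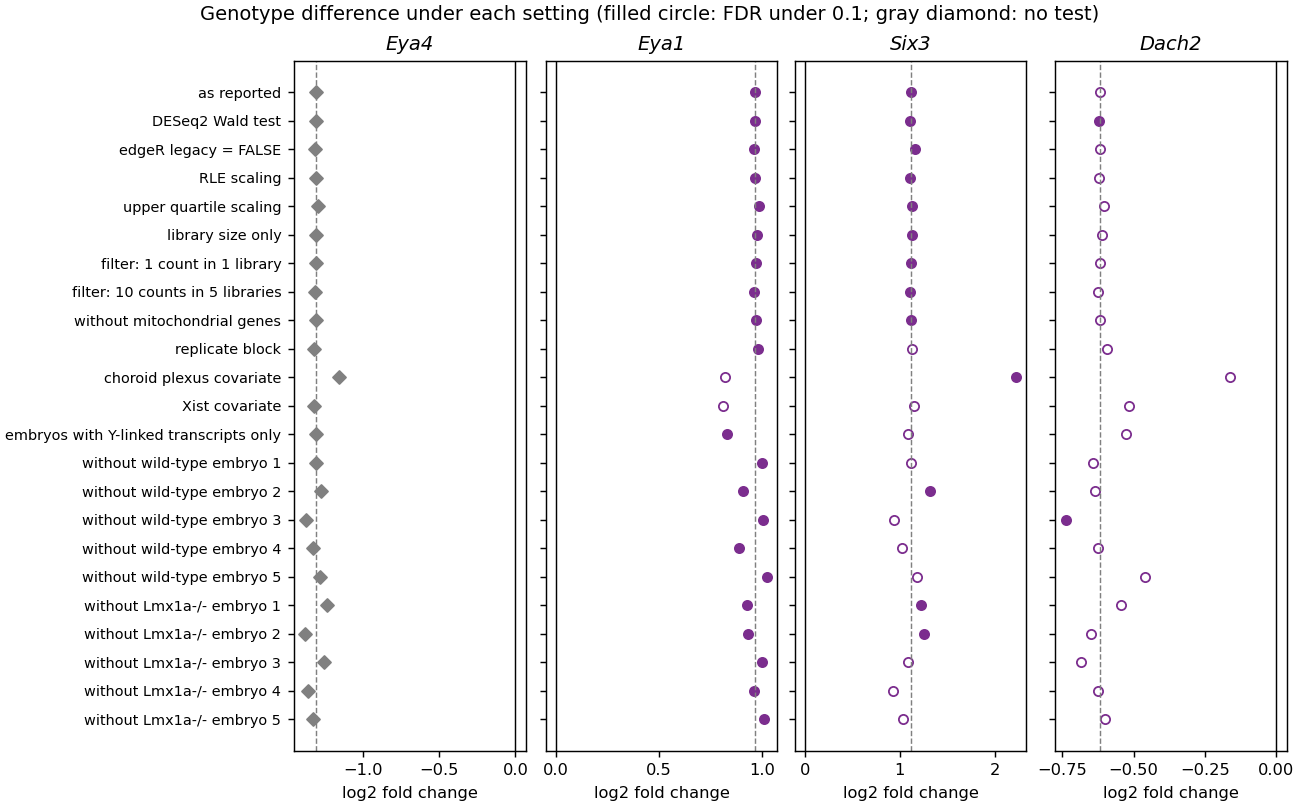
Log2 fold change of *Eya4*, *Eya1*, *Six3* and *Dach2* as reported (top, dashed line) and under each other test, scaling, filter, covariate and set of embryos. Gray diamonds for *Eya4*, which was chosen by this contrast, carry no test and lie between -1.38 and -1.15; filled circles have an FDR under 0.1, and *Eya1* is filled in all but the choroid plexus and *Xist* covariates, and *Six3* and *Dach2* change sides as single embryos are left out.

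The genes whose levels followed *Eya4* most closely over the 10 libraries, among 16716 genes with a mean of at least 1 CPM, were *Sertm1*, a gene for a small membrane protein (Pearson r of log2 levels 0.982), *4930555F03Rik* (0.976), *Unc5c*, a netrin receptor (0.974), *Lmo2*, a LIM-domain cofactor (0.971), and *Dnah9*, an axonemal dynein (0.970). All 5 were lower in the mutants, with log2 fold changes between -2.37 and -1.17, and the libraries share the genotype difference that chose *Eya4*. Of its relatives, *Dach2* was the closest (r 0.802) and *Eya1* the most opposed (r -0.901). After the mean of each genotype was subtracted, which leaves the embryo-to-embryo differences and the shared scaling, the closest genes were *Chd1*, a chromatin remodeler (0.960), *Armc3* (0.955), *Calr3* (0.952), *Cplane1* (0.941) and *Rps6ka6* (0.930). *Eya1* was then at -0.076 and *Dach2* at 0.53. Between *Eya4* and *Eya1* the strong negative value was thus set by the genotype means. These correlations describe 10 libraries and carry no test.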

How the data were processed

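Each library held RNA of the CH of 1 embryo at e13.5, taken by laser capture from wild-type or *Lmx1a*-/- animals. According to the methods of the study, the authors checked reads with FastQC 0.11.8, trimmed them with Trimmomatic, aligned them to GRCm38 with STAR 2.7.1a, and counted reads per gene with HTSeq 0.11.2. The deposited values are these counts, unscaled. The strand setting is not given in the sources used here, so overlapping antisense genes are uncertain. Of 52508 rows, 281 exact repeats were dropped. Groups and embryo numbers come from the labels.

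A gene was tested if 3 or more libraries had 10 or more counts of it, with the quasi-likelihood test of edgeR 4.0.16 (R 4.3.3) after TMM scaling, in all 10 libraries without covariates, at a Benjamini-Hochberg FDR under 0.1. The code was tested on simulated data. The SE is the log2 fold change divided by the root of the F statistic. P-values set the genotype difference against the spread between embryos within a genotype, which edgeR moderates over all genes tested. Normalized CPM are TMM-scaled, and levels per kb use the summed exon length of GENCODE M21, a different release from that of the counting. *Tle5* and *H2ax* are *Aes* and *H2afx* there. Correlations used log2(CPM + 0.5).

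The genes, lists and markers were chosen with earlier results of these data known. The named genes are the 9 genes, *Lmx1a*, the other Six and Pax genes, the cofactors and targets past the threshold (at most 5 of each) with *Wnt8b* and *Wnt1*, the 5 genes most like *Eya4* by each measure, genes overlapping a member, and the markers beside which a gene is described. *Tle1*, *Ski*, *Mycn*, *Bmp4*, *Ccna1* and *Slc12a2* were named after their values were seen. Alternatives were DESeq2 1.42.0, other edgeR dispersions, scalings, filters and threshold, no mitochondrial genes, a replicate block, each embryo left out, and *Xist* or the mean choroid plexus marker level as a covariate. Both covariates correlated with genotype (-0.825 for *Xist* and -0.775 for the choroid plexus markers), so neither separates well from it. A fit to the embryos with Y-linked transcripts was added after seeing the data. A gene of the network and 2 marker genes of the lists are not reported here.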

Additional observations from a re-analysis of the deposited data

Results flagged for a closer look

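In 36 groups of 5 embryos (18 genes in each genotype), 4 held an embryo whose gap to the next was large for the range of its group by Dixon's criterion. By chance about 1 in 20 groups would. For *Eya3*, *Lmx1a*-/- embryo 5 was the lowest at 36.6 CPM, where the others lay between 41.6 and 43.4 CPM. The same embryo was the highest mutant for *Six2* at 15.1 CPM (others 3.53 to 6.84 CPM). Wild-type embryo 3 was the highest wild-type for *Six2* at 14.1 CPM (others 0.896 to 2.39 CPM). Wild-type embryo 4 was the highest for *Pax3* at 49.5 CPM (others 1.44 to 5.68 CPM). *Eya4*, *Eya1*, *Dach1*, *Dach2*, *Six3*, *Six4* and *Six5* had no such embryo in either genotype.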

How the results depend on the processing

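*Eya4*, whose direction its choice fixes, had log2 fold changes from -1.38 to -1.23 without 1 embryo and from -1.32 to -1.15 otherwise. The count of the 9 genes that were lower was 1, and 2 with DESeq2. The count that were higher was 2, and it was 1 at an FDR under 0.05, with the choroid plexus covariate, with the replicate block and in the embryos with Y-linked transcripts, and 0 with the *Xist* covariate. Without 1 embryo, 1 to 2 were lower and 1 to 2 higher. Over all genes, 497 were lower and 373 higher. These counts were 976 and 790 with DESeq2, 251 and 197 at an FDR under 0.05, 27 and 4 with *Xist*, 22 and 33 with the choroid plexus covariate, 86 and 44 in the embryos with Y-linked transcripts, and 353 and 248 with the replicate block. Without 1 embryo they ran from 261 to 604 and from 190 to 455. *Eya2* changed sign to -0.26 with *Xist* and -0.23 in the embryos with Y-linked transcripts. *Pax6* turned to -0.063 and *Six2* to -0.36 with the choroid plexus covariate, which correlated with genotype at -0.775. *Six4* ran from -0.0054 to 0.18 and *Six5* from -0.014 to 0.16 without 1 embryo. The cause of these changes was not tested.

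Embryo numbers did not pair the libraries: same-numbered embryos deviated from their genotype means with correlations of 0.033, 0.0073, -0.14, 0.0075 and -0.0069, and 0 of 10 libraries correlated best with their own number. With the replicate block, *Six3* (1.13, FDR 0.172), *Six3os1* (1.02, FDR 0.162), *Lmx1a* (0.70, FDR 0.136) and *Tle4* (0.44, FDR 0.137) missed the threshold and *Pax3* passed it (-2.15, FDR 0.0397). *Six6*, *Pax2*, *Pax8* and *Wnt1* had too few counts to be tested, with at most 26 in a library.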
